A study of Mus musculus with 4 samples.

Results

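Sucrose was compared with starch in the prefrontal cortex of mice heterozygous for Glo1, using 2 of the 4 arrays of the series and 42094 of the 56605 probes on each array. The 2 arrays were chosen by their labels, and a probe was kept where it was marked well above background on all 4 arrays. All mice were B6J, aged 3 months, and had eaten a diet based on starch or on sucrose for about 70 days, starting on postnatal day 21. The 4 groups were wild-type mice on starch, wild-type mice on sucrose, Glo1 heterozygotes on starch and Glo1 heterozygotes on sucrose. RNA of 3 mice was pooled for each group and each pool was hybridised to 1 array, so no difference below has a replicate check, an error between mice or a p-value. The labels give neither the Glo1 allele nor the sex of the mice. The wild-type arrays, which share no array with the heterozygous comparison, are given beside it.

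Glo1 encodes glyoxalase 1, which together with the enzyme encoded by Hagh clears methylglyoxal, a reactive by-product of sugar breakdown that modifies proteins. Sucrose is split into glucose and fructose in the gut, whereas starch yields glucose alone. The prefrontal cortex is a layered sheet of excitatory neurons, interneurons and glia. Next to it in the brain lie the striatum, the olfactory bulb and ventricles lined by ciliated ependymal cells, and the choroid plexus inside the ventricles secretes cerebrospinal fluid.

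Levels are signals as multiples of the array's own 75th percentile over non-control spots, and changes are log2 of the sucrose level over the starch level, so that 1 is 2-fold. A gene is represented by its brightest probe, and levels of different genes are not comparable. The share of spots well above background lay between 77.6% and 80.2% on the 4 arrays, and no spot was saturated. Of the 42094 probes, 420 (0.998%) were 2-fold or more higher on sucrose in heterozygous mice and 194 (0.461%) were 2-fold or more lower. With another background correction, normexp, these counts were 154 and 70. Past 4-fold there were 97 higher and 48 lower probes, and past 8-fold 32 and 10. By gene, 265 of 20621 (1.29%) were higher and 99 (0.48%) lower, and the median change over all genes was 0.00. The calls lay mostly among dim probes: 57.2% in the dimmest quartile by mean signal, 29.6% in the second, 10.7% in the third, and 2.44% among the brightest. For genes of called probes that had another probe, the other probe moved the same way by 1.5-fold or more for 28 of 131 of the dimmest calls (21.4%). From the second quartile up, this held for 32 of 71 calls (45.1%), then 25 of 35 (71.4%), and 5 of 9 (55.6%) among the brightest probes. None of the 299 probes printed 10 times differed by 2-fold. However, 291 of them lay in the brightest quartile, where 0.143% of all probes were called, and 0 in the dimmest. They therefore say little about most of the calls. The SD of a difference of single spots was 0.13 in the second quartile (3 probes), 0.11 in the third (5) and 0.07 in the brightest. It is an error within arrays and not between mice.

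**Figure D1:**
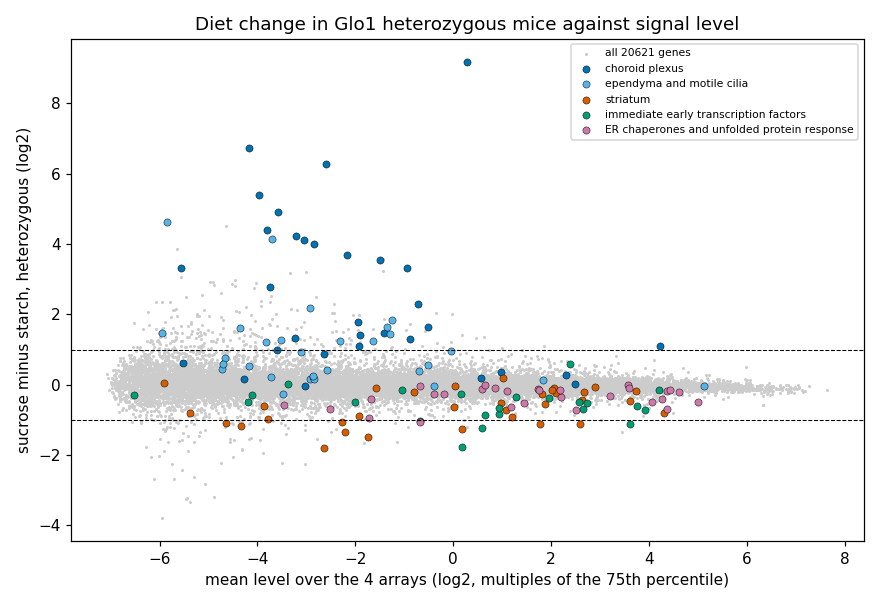
Each point is 1 of 20621 genes, with its mean level over the 4 arrays (log2, multiples of the 75th percentile) on the horizontal axis and its log2 change from starch to sucrose in heterozygous mice on the vertical axis. Dashed lines mark 2-fold. Choroid plexus genes lie above the cloud with Ttr at 9.18, while striatal genes reach -1.79 (Adora2a) and immediate early genes -1.76 (Egr2).

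Among the probes kept, the higher calls and the lower calls did not rest on the same array. A dim probe far below the others on 1 array could fail the filter, so counts of an array standing below the rest are limited by it. How much the filter shaped the counts that follow was not tested. At 261 of the 420 higher probes (62.1%) the heterozygous sucrose array stood 2-fold or more above all 3 other arrays. At 4 of them (0.952%) the heterozygous starch array stood 2-fold or more below the other 3. Of the 194 lower probes, 88 (45.4%) had the heterozygous starch array 2-fold or more above all 3 others, and only 4 (2.06%) had the heterozygous sucrose array below all 3. At 158 higher probes (37.6%) and 102 lower probes (52.6%), neither array stood apart from the other 3 in this way. In wild-type mice, where 208 probes (0.494%) were higher and 346 (0.822%) lower on sucrose, 20 of the 420 higher probes were also 2-fold higher and 10 were 2-fold lower. These 20 are 4.76% of the heterozygous and 9.62% of the wild-type higher calls. Of the 194 lower probes 31 were 2-fold lower in wild-type mice too, which is 16% of the heterozygous and 8.96% of the wild-type lower calls, and 20 were 2-fold higher.

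Glo1 itself differed little with diet in heterozygous mice. Its brightest probe (chr17:30729951-30730010, mm9) had a level of 2.74 on starch and 3.04 on sucrose in heterozygous mice, against 4.04 and 5.53 in wild-type mice. The change was 0.15 in heterozygous mice, between 0.15 and 0.21 over its 3 probes. In wild-type mice it was 0.45, between 0.43 and 0.48 over the same probes. Hagh, the second glyoxalase, changed by -0.14, and Park7, which encodes the protein DJ-1, by 0.01. Of 17 measured genes of glyoxalase and carbonyl detoxification 1 (5.88%, against 1.29% of all genes) was 2-fold higher: the aldo-keto reductase Akr1b8, at 0.662 on starch and 1.51 on sucrose (1.19), with wild-type levels of 0.629 and 0.628. The list's median was 0.05 in heterozygous and -0.01 in wild-type mice.

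The genes furthest above their starch level were those of the choroid plexus. Of 35 genes on that list 32 were measured on all 4 arrays, and 23 of them (71.9%, against 1.29% of all genes) were 2-fold or more higher on sucrose. The median of the 32 was 1.72, 31 of 32 were higher, and 0 were 2-fold lower. Together with the cilia list below, their probes made up 43 of the 420 higher probes. In wild-type mice the median was 0.11, where 0.485% of all genes were 2-fold higher and 0.994% lower. Past 2-fold there were Ttr (2.46), Kcne2 (1.74), Clic6 (1.42) and Krt18 (1.02), which were higher, and Aqp1, which was lower. The summed level of the 32 genes was 32.5 and 33.8 on the wild-type starch and sucrose arrays, 33.5 in heterozygous mice on starch and 133 in heterozygous mice on sucrose. Bright probes weigh most in such a sum: Ttr (58.7) and Enpp2 (32.5) made up most of the last one.

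Ttr encodes transthyretin, a carrier of thyroid hormone and of retinol-binding protein that the choroid plexus secretes. Its level was 0.101 on starch and 58.7 on sucrose in heterozygous mice, against 0.259 and 1.42 in wild-type mice. The heterozygous change was 9.18, or 578-fold, and a second probe gave 9.24. Folr1, the folate receptor of the choroid plexus, was at 0.0356 on starch and 2.72 on sucrose, with 0.0772 and 0.0976 in wild-type mice. Its heterozygous change was 6.26, and 2.37 at a dimmer probe. Kcne2, a potassium channel subunit, was at 0.013 and 1.39 in heterozygous and 0.0126 and 0.0419 in wild-type mice. All 3 genes were highest on the heterozygous sucrose array, and the wild-type sucrose array came next. Kl, which encodes the ageing-related hormone co-receptor klotho, was at 0.119 on starch and 1.52 on sucrose (3.68), with wild-type levels of 0.107 and 0.126. Sostdc1, a secreted inhibitor of BMP and Wnt signalling, was at 0.0345 and 1.03 (4.90). Otx2, a homeobox factor of the choroid plexus, was at 0.0545 and 0.944 (4.11), although its dimmer second probe gave 0.20. Enpp2, whose enzyme makes lysophosphatidic acid and which oligodendrocytes also express, had levels of 15.7 and 15.8 in wild-type and 15 and 32.5 in heterozygous mice (1.11), but its 2 dimmer probes gave 0.36 and 0.16. Aqp1, the water channel of the apical membrane, had changes of opposite sign in the 2 genotypes, a difference that was not tested: 1.79 in heterozygous mice (0.274 to 0.946) and -2.11 in wild-type mice (0.274 to 0.0634).

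The remaining choroid plexus genes past 2-fold were Krt18 (5.38), Steap1 (4.39), F5 (4.24), Wfdc2 (3.99), Clic6 (3.53), Tmem72 (3.32), Ecrg4 (3.31), Lbp (2.79), Kcnj13 (2.30), Col8a1 (1.65), Abca4 (1.48, but 0.13 at a dimmer probe), Trpv4 (1.42), Cldn1 (1.33), Msx1 (1.31) and Car12 (1.09). They include keratin and claudin genes of an epithelium, ion channels and the clotting factor gene F5. A further 3 members were well above background on the sucrose array of heterozygous mice but not on their starch array, so only a lower bound can be given. The bicarbonate transporter gene Slc4a5 was at least 86.8-fold higher, Calml4 at least 64.6-fold and the keratin gene Krt8 at least 32.3-fold. In the tissue as a whole, more cells of a type and more RNA per cell cannot be told apart, here or in the lists below. How much of the diet difference in other genes moved with these choroid plexus genes was not tested.

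Genes of the ependyma and of motile cilia, the beating hairs that move cerebrospinal fluid, were higher on the same array. Of 36 genes 30 were measured, 27 of which were higher on sucrose, 12 of them (40%, against 1.29% of all genes) by 2-fold or more. The median was 0.68 (0.45 with normexp), against -0.17 in wild-type mice, where 22 of the 30 were lower, 2 of them by 2-fold (Dnah11 at -2.38 and Foxj1 at -1.01, against 0.994% of all genes), and 0 were 2-fold higher. Ccdc153, a coiled-coil gene of ciliated cells, was at 0.0289 on starch and 0.505 on sucrose (4.13), with 0.0545 and 0.0429 in wild-type mice. Foxj1, the transcription factor that commits cells to motile cilia, was at 0.0639 and 0.153 in heterozygous mice and 0.111 and 0.0549 in wild-type mice. Its sucrose level in heterozygous mice was the highest of the 4, but not far above wild-type starch. Tekt1, a tektin of the ciliary axoneme, was at 0.246 and 0.576 (1.23), with 0.312 and 0.239 in wild-type mice. Dynein genes of the cilium were uneven, with 2.17 for Dnah6, 1.80 for Dnah9 (1.43 to 1.80 over 3 probes), 0.22 for Dnah5 and -0.25 for Dnah11. Wdr63 changed by 4.62, Mia by 1.85, Cfap126 by 1.65 (1.60 for its other probe), Ccdc40 by 1.62, Spag16 by 1.48, Dynlrb2 by 1.45, Rsph1 by 1.23 and Rsph4a by 1.20. Tmem212 was not well above background on starch and was at least 39.8-fold higher. The choroid plexus list moved with this one, and the part of either in the other was not tested.

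Cilia genes are known targets of RFX transcription factors, and the promoters of Ccdc153 and Tekt1 are shown as examples of those with the RFX motif whose genes passed 2-fold, the others being Dynlrb2 and Spag16. The promoter of Tekt1 is 1 of 2 that the table gives for the gene. The stretches are the 250 bases before the start site from the RefSeq table of GRCm38.p6, at chr9:44240427-44240676 on the plus strand and chr11:72361883-72362132 on the minus strand, with the motif GTTGCC or its reverse complement in capitals. In Ccdc153 the first base of the match lies 152 bases before the start site, and in Tekt1 the matches begin 35 and 15 bases before it.
Ccdc153: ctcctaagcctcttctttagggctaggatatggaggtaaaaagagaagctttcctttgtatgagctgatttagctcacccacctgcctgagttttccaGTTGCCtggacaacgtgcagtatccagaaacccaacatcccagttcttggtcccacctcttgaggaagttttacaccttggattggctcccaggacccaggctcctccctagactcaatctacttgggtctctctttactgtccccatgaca
Tekt1: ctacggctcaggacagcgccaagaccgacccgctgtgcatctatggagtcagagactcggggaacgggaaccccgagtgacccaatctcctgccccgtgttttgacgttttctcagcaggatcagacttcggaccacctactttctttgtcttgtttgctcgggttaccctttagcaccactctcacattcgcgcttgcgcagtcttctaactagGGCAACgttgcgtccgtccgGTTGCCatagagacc
The RFX motif, searched on both strands, was present in 12 of the 35 promoters of the list's 31 genes in the table (34.3%) and in 10.4% of all 32851 promoters. The 11 measured genes with a match had a median change of 0.77, from -0.03 to 4.13. The 14 without a match had a median of 0.42, from -0.25 to 4.62. Both groups covered nearly the same range.

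**Figure D2:**
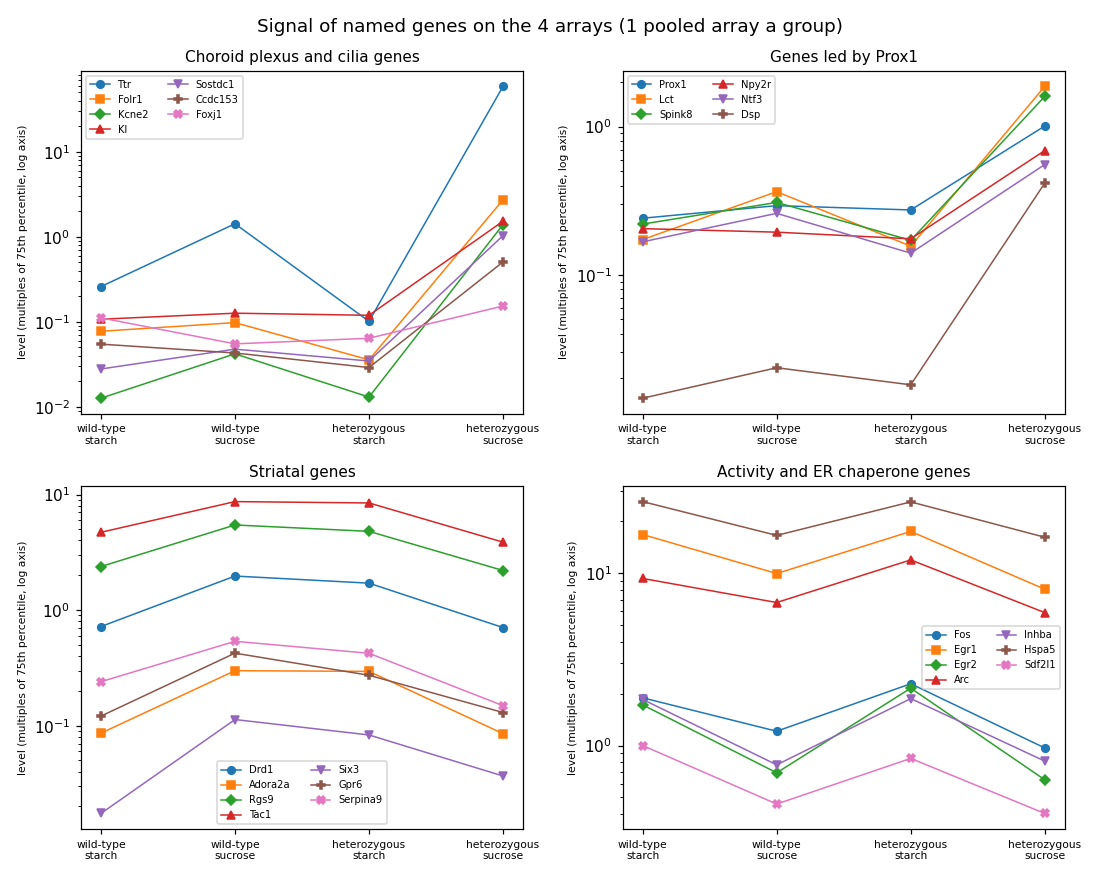
Level of named genes (multiples of the 75th percentile, log axis) on the 4 arrays, 1 pooled array a group, in 4 panels. Choroid plexus and cilia genes and the genes led by Prox1 are high on the heterozygous sucrose array, striatal genes are high on the wild-type sucrose and heterozygous starch arrays, and activity and chaperone genes are low on both sucrose arrays.

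Several of the highest genes outside these lists are known from hippocampal neurons. Prox1, a homeobox factor that marks granule cells of the dentate gyrus, was at 0.274 on starch and 1.01 on sucrose (1.88, and 1.89 for its other probe), against 0.241 and 0.293 in wild-type mice. Lct, the lactase gene, was at 0.156 and 1.87 (3.58), with 0.173 and 0.364 in wild-type mice. Spink8, a protease inhibitor gene, was at 0.171 and 1.6 (3.23), with 0.22 and 0.308 in wild-type mice. Each of these genes was highest on the heterozygous sucrose array. Npy2r, a receptor of neuropeptide Y, changed by 1.98, as did the neurotrophin-3 gene Ntf3. Nr3c2, the mineralocorticoid receptor, was at 2.89 and 6.22 (1.10, with 0.89 as the lowest of 3 probes). It was the only one of the 18 genes of the glucocorticoid list past 2-fold (5.56%, against 1.29% of all genes higher). The median of that list was -0.15, and 13 of the 18 were lower.

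After these values had been seen, a list of 30 other genes known from the hippocampus was written, with the values of its own genes unseen. Of the 29 measured, 25 were higher on sucrose and 6 (20.7%, against 1.29% of all genes) passed 2-fold, with a median of 0.43 against -0.03 in wild-type mice. Above the median signal 1 of 20 passed, where 49 of all 13023 genes did, and the median was 0.15. Past 2-fold were the desmoplakin gene Dsp (4.52; 0.0181 on starch and 0.416 on sucrose), Fibcd1 (2.51), Cabp7 (2.50), C1ql2 (1.81), Tdo2 (1.27) and Gpr161 (1.10). Other members differed less: Wfs1 changed by 0.03, Calb1 by 0.07 and Itpka by 0.12. Of 17 measured genes of a second list added at that stage, for thalamus and habenula, 0 passed 2-fold and the median was -0.11. The part of hippocampal RNA in the higher calls was not tested.

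Other genes with strong changes included Tspan18, a tetraspanin gene, with 2.25 (0.84 to 2.25 over 3 probes), and Shisa6, an auxiliary subunit of AMPA receptors, with 2.03 but 0.25 at a second probe of similar brightness. Lhx9, a LIM homeobox factor, changed by 2.88 and 3.42 at its 2 probes, Wdr86 by 2.30 and 1.90, and Olfml2b by 1.72 and 1.93. Over all these probes, the wild-type changes lay between -0.16 (Tspan18) and 0.50 (the dimmer probe of Lhx9).

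Striatal genes were lower on sucrose in heterozygous mice and higher in wild-type mice. The list holds genes of medium spiny neurons, the projection neurons of the striatum that receive dopamine. Of 33 measured members 31 were lower on sucrose and 9 (27.3%, against 0.48% of all genes) by 2-fold or more. The median was -0.61. Above the median signal 4 of 24 were 2-fold lower, where 17 of all 13023 genes were, and 5 members passed with the mean over the probes of a gene. In wild-type mice it was 0.72 and 10 members were 2-fold higher (against 0.485% of all genes), and 30 of the 33 were lower in heterozygous and higher in wild-type mice. Their summed level was 96 and 134 on the wild-type starch and sucrose arrays and 124 and 89 on the heterozygous starch and sucrose arrays. The heterozygous sucrose array was thus close to the wild-type starch array, and the other 2 arrays were high. Whether the diet changes of the genotypes differ could not be tested with 1 array a group.

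Drd1, the D1 dopamine receptor, was at 1.71 on starch and 0.706 on sucrose in heterozygous mice, and at 0.72 and 1.97 in wild-type mice. Its change was -1.27 (-1.40 at a second probe), against 1.45. Adora2a, the adenosine receptor of the neurons that carry D2 receptors, was at 0.295 and 0.0853 in heterozygous and 0.0861 and 0.299 in wild-type mice. Drd2 itself was dim, with 0.0242 and 0.0139 (-0.80). For Drd1 and Adora2a the 2 low arrays, wild-type starch and heterozygous sucrose, differed by little. Rgs9, a regulator of G-protein signalling, changed by -1.13, and its other probes gave -1.13, -1.19, -0.65 and -0.23, the last 2 being the dimmest. Tac1, the precursor of substance P, was at 8.45 and 3.87 (-1.13), with 4.71 and 8.68 in wild-type mice, and its other probes gave -1.05 and -0.24. Slc35d3 (-1.35), Serpina9 (-1.50), Six3 (-1.18), Sh3rf2 (-1.10, but -0.58 at a second dim probe) and Gpr6 (-1.07, but -0.38 at a second probe) also passed 2-fold, and Isl1 was at least 3.49-fold lower. Other markers were closer to their starch level, with -0.44 for Ppp1r1b, which encodes DARPP-32, -0.79 for the enkephalin precursor Penk and -0.23 for the dynorphin precursor Pdyn. The neuropeptide genes Nts, for neurotensin, and Cartpt, both expressed outside the cortex as well, went the same way. Nts was at 0.511 and 0.161 (-1.67, against 0.80 in wild-type mice) and Cartpt at 1.08 and 0.578 (-0.90, against 0.92). The neuropeptide list as a whole was mixed. Of its 25 genes 6 were lower in heterozygous and higher in wild-type mice and 2 the reverse, while 11 were lower in both and 6 higher in both.

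Olfactory bulb genes had lower levels on sucrose whichever the genotype. In heterozygous mice 16 of 18 measured genes were lower, 2 of them (against 0.48% of all genes) by 2-fold or more, and the median was -0.46. In wild-type mice it was -1.61, with 10 genes 2-fold lower (against 0.994% of all genes). Tbx21, a factor of mitral cells, was at 0.482 on starch and 0.202 on sucrose (-1.26), against 0.238 and 0.0552 in wild-type mice. Th, tyrosine hydroxylase, which bulb interneurons and dopamine fibres share, was at 3.77 and 2.15 (-0.81), against 4.29 and 0.971. Eomes was at 0.458 and 0.277 (-0.73), against 0.403 and 0.0449. The secretagogin gene Scgn changed by -1.19. The wild-type sucrose array was the lowest of the 4 for each of these genes.

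Genes that neuronal activity induces were lower on sucrose. The immediate early transcription factors are switched on within minutes of calcium entry and regulate a second wave of effectors at synapses. Of 23 such factors 21 were lower in heterozygous mice and 4 (17.4%, against 0.48% of all genes) passed 2-fold, and the median was -0.49. In wild-type mice 20 were lower and 1 passed (against 0.994% of all genes), and the median was -0.36. The summed level was 123 on starch and 85.3 on sucrose in heterozygous mice, and 113 and 90.1 in wild-type mice. Both sucrose arrays were therefore below both starch arrays. The striatal list moved beside them in heterozygous mice (-0.61) and the other way in wild-type mice (0.72), and its part in the activity genes was not tested.

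Egr2, a zinc finger factor, was at 2.15 on starch and 0.633 on sucrose in heterozygous mice, and at 1.72 and 0.695 in wild-type mice. Fos was at 2.28 and 0.968 (-1.24), with 1.89 and 1.21 in wild-type mice. Egr1 was at 17.4 and 8.05 (-1.11), with 16.7 and 9.92. In each of the 3 the groups on sucrose lay below both groups on starch. Fosb changed by -1.03 and -1.31 at its 2 probes, and Npas4, a factor that responds chiefly to calcium entry, by -0.87. The exceptions were Jun, at 4.62 and 7.01 (0.60), and Nr4a3 (0.03). Among 32 activity-induced effectors 28 were lower and 2 (6.25%, against 0.48% of all genes) passed 2-fold, and the median was -0.42. In wild-type mice 23 were lower and 2 passed as well (against 0.994% of all genes), and the median was -0.26. Arc, which shapes the removal of AMPA receptors from synapses, was at 11.9 and 5.89 (-1.01), with 9.29 and 6.74 in wild-type mice. Inhba, which encodes a subunit of activin, was at 1.87 and 0.812 (-1.21), with 1.85 and 0.773. Nptx2, a pentraxin of excitatory synapses, changed by -0.46, and Homer1 by -0.43 at its brightest probe and by as much as -1.66 at another of 4.

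The promoter of Egr2 is shown because Egr2 was the lowest gene of the list and its promoter held a CArG box. The CArG box is the binding motif of serum response factor. Among the 18 list genes with a promoter in the table, only Egr2 had this motif in the 250 bases before the start site. Bases further upstream were not searched, nor were the list genes without a promoter in the table. The promoter shown lies at chr10:67537316-67537565 (GRCm38.p6, plus strand) and is 1 of 5 that the table gives for the gene. Its CArG box, which begins 72 bases before the start site, is in capitals.
Egr2: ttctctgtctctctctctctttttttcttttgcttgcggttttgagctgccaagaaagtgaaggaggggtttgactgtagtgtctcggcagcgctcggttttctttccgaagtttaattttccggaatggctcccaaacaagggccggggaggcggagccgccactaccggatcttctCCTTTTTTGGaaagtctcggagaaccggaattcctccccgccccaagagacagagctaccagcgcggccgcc
Within this window, a CArG box was present in 4 of the 24 promoters of the list (16.7%), all of Egr2. It was present in 1.47% of all promoters in the table. Counted by gene, this was 1 of 18, against 1.62% of all genes in the table. In the same window, the cAMP response element TGACGTCA was found in 2 of the 18 immediate early genes and in 5 of 24 effectors. This compares with 1.77% of all genes in the table. The 5 effectors with it had a median change of -0.46 and the 19 without it -0.38, and in wild-type mice the medians were 0.17 and -0.24. Among the immediate early genes the order was the opposite in heterozygous mice, at -0.22 for the 2 with it and -0.62 for the 16 without.

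Chaperones of the endoplasmic reticulum were lower on sucrose as a group but by small amounts. These proteins fold secreted and membrane proteins, and the unfolded protein response raises them when folding falls behind. All 29 genes of the list were measured and all 29 were lower in heterozygous mice, with a median of -0.25, and 26 of them were lower in wild-type mice too (median -0.32). Past 2-fold was 1 gene (3.45%, against 0.48% of all genes), Sdf2l1, a cofactor of the chaperone BiP, at 0.842 on starch and 0.404 on sucrose (-1.06), with 1 and 0.458 in wild-type mice. Hspa5, which encodes BiP, was at 25.8 and 16.1 (-0.68, and -0.80 to -0.68 over 3 probes), with 25.9 and 16.5 in wild-type mice. Hsp90b1 was at 26.7 and 22.9 (-0.22), with 27.3 and 22. Hspa5 thus had nearly equal levels on the 2 starch arrays and again on the 2 sucrose arrays. Derl3, a degradation factor, was at 0.407 and 0.21 (-0.96), and Creld2, a secreted folding factor, at 7.14 and 4.34 (-0.72). The transcription factors of the response changed by -0.49 (Xbp1), -0.49 (Atf4) and -0.25 (Ddit3).

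The promoters of Hspa5, Creld2 and Derl3 are shown because they hold the ER stress response element, the motif through which the unfolded protein response acts on chaperone genes. They lie at chr2:34771840-34772089, chr15:88819396-88819645 and chr10:75893148-75893397, all on the plus strand of GRCm38.p6, with matches to the element (CCAAT, any 9 bases, CCACG, or the reverse complement) in capitals. The matches begin 65, 126 and 156 bases before the start site in that order.
Hspa5: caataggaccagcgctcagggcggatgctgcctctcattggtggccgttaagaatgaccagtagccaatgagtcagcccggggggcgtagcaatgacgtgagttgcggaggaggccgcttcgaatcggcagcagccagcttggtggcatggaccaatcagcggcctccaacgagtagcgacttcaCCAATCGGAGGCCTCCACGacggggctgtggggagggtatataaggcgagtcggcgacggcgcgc
Creld2: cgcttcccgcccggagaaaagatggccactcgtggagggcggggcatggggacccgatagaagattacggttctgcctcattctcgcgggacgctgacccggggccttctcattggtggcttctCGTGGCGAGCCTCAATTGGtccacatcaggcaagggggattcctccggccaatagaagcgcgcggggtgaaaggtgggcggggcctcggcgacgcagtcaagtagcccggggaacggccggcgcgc
Derl3: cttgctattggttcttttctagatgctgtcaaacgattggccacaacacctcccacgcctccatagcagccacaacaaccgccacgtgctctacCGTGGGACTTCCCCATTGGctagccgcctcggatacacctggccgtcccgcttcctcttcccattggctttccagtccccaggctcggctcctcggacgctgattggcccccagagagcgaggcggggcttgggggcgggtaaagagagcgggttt
The element was present in 9 of the 25 promoters of the list's genes in the table (36%), and in 37 of all 32851 promoters (0.113%). The 9 genes with it had a median change of -0.31 in heterozygous mice, from -0.96 to -0.08, and -0.52 in wild-type mice. The 16 genes without it had a median of -0.21, from -1.06 to -0.01, and -0.26 in wild-type mice. The ranges overlapped almost fully, and Sdf2l1, the lowest gene of the list, had no match in this window.

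The cytosolic heat shock proteins, which hold unfolded proteins outside the endoplasmic reticulum, had a median of -0.22 in heterozygous and -0.23 in wild-type mice, with 14 of 16 lower in both and 0 past 2-fold. Hspb1, a small heat shock protein, was at 7.58 on starch and 4.15 on sucrose (-0.87), with 7.41 and 3.93 in wild-type mice. Hspa1b was at 1.48 and 0.918 (-0.69), with 1.68 and 0.855. Hspa1a changed by -0.35 and Hsph1 by -0.26. The genes Hspa1a and Hspa1b are near-identical copies, so their probes may share signal.

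Genes induced by interferon were lower on sucrose, 16 of 18 in heterozygous mice and 18 of 18 in wild-type mice, with a median of -0.53 in both (-0.35 in heterozygous mice above the median signal). In heterozygous mice 0 of the 18 passed 2-fold, and in wild-type mice 2 were 2-fold lower (against 0.994% of all genes). Ifit1 was at 0.188 on starch and 0.099 on sucrose (-0.93), with 0.169 and 0.107 in wild-type mice. Usp18, which ends interferon signalling, was at 0.19 and 0.0965 (-0.97), with 0.171 and 0.097. Ifit3 changed by -0.57 and Ifit2 by -0.18, while Bst2 (0.10) and Ifi27 (0.09) were not lower. Outside the list, Ifi27l2a was at 1.03 and 0.505 (-1.04), and both probes of the helicase gene Ddx60 passed 2-fold (-1.09 at the brighter) at very dim levels.

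Blood genes were lower as well. Of 14 measured genes of red cells and haem synthesis 13 were lower, 1 of them (against 0.48% of all genes) by 2-fold or more, and the median was -0.46. In wild-type mice 6 passed 2-fold (against 0.994% of all genes) and the median was -0.97. The alpha globin gene Hba-a1 was at 97.1 on starch and 64.4 on sucrose (-0.59), with 115 and 58.1 in wild-type mice, and Hba-a2, a near-identical copy, gave the same change. In heterozygous mice the only member of the blood list past 2-fold was Isg20, which interferon also induces (-1.09, and -0.83 at its other probe). The platelet and clotting list was divided, with 11 of 19 measured genes lower and 8 higher and a median of -0.11 (wild type -0.09). In it 2 genes were 2-fold lower (against 0.48% of all genes) and 1, F5 (4.24), was 2-fold higher (against 1.29%). Ppbp was at 0.123 and 0.0349 (-1.82) and Clec1b at 0.0467 and 0.0217 (-1.11), both also lower in wild-type mice (-1.55 and -1.23), while Pf4 changed by -0.39, Itga2b by 0.45 and Gp5 by 0.54. The medians of microglia (-0.01) and endothelium (-0.05) lay near 0. The part of blood in the interferon result was not tested.

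**Figure D3:**
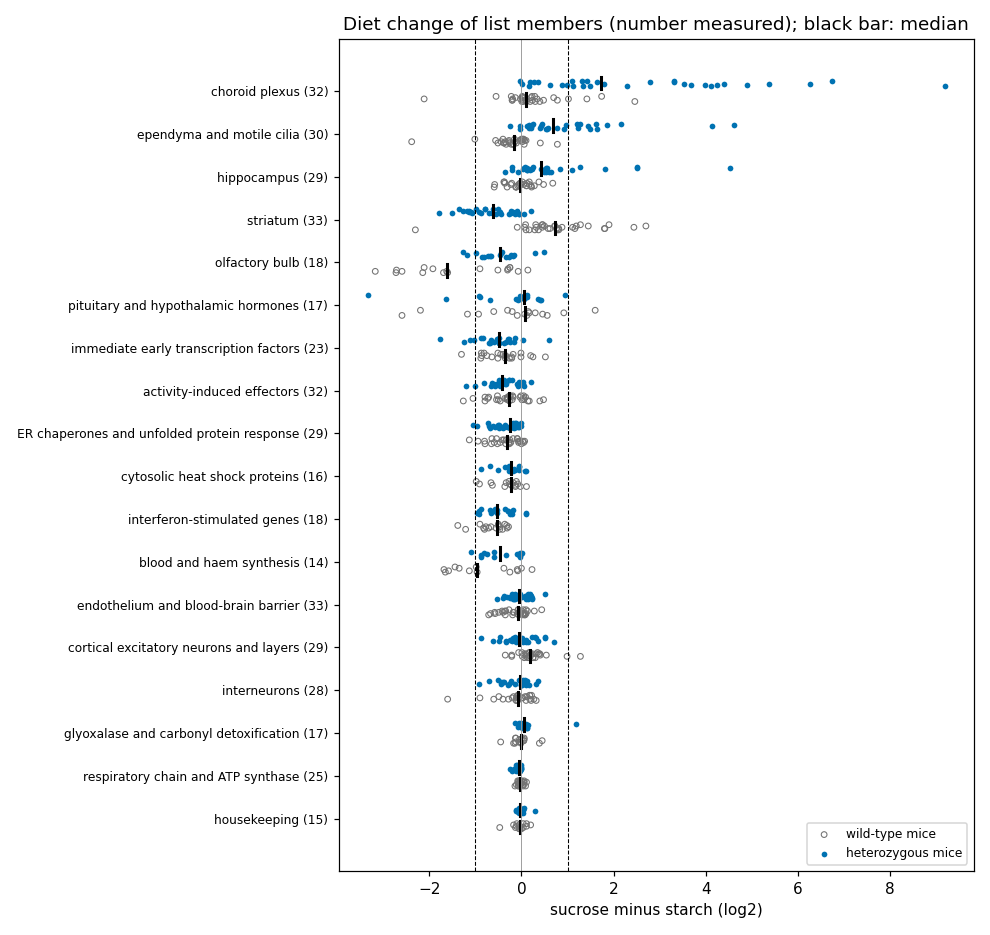
Log2 change from starch to sucrose of each measured member of 18 gene lists, with filled points for heterozygous and open points for wild-type mice; black bars are medians and dashed lines mark 2-fold. The choroid plexus list (median 1.72) and the ependyma and cilia list (0.68) stand to the right in heterozygous mice, against 0.11 and -0.17 in wild-type mice, and the striatum list lies on opposite sides of 0 in the 2 genotypes (-0.61 and 0.72).

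Genes of the cortex itself were measured throughout and differed little. The list of cortical excitatory neurons and layers had a median of -0.05 over 29 genes, with 0 past 2-fold, against 0.18 in wild-type mice. The vesicular glutamate transporter Slc17a7 was at 3.99 on starch and 4.68 on sucrose (0.23), and Neurod6 at 2.3 and 3.28 (0.51). The thyroid hormone-binding protein Crym, at 14.4 and 23.4 (0.70), was the member furthest above its starch level, and the growth factor gene Ccn2, a marker of the deepest layer, was furthest below, at 3.03 and 1.66 (-0.87). Interneuron genes had a median of -0.02, 11 being higher and 17 lower, with 0.02 for Pvalb and 0.00 for Sst. Gad1 changed by -0.44 (-0.95 to -0.37 over 4 probes) and Gad2 by -0.37 (-1.21 to -0.37 over 3 probes). Astrocyte genes had a median of -0.09. The acute-phase gene Serpina3n, dim on all arrays, was the only one of 24 astrocyte list members past 2-fold (1.15), where 1.29% of all genes were higher, and Gfap changed by 0.35 (2.24 to 2.86). Oligodendrocyte genes had a median of -0.04, pericyte genes -0.15 and meningeal fibroblast genes -0.03. Decorin, the matrix proteoglycan of the Dcn gene, was the highest of the meningeal list at 2.95 and 5.19 (0.81).

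Pathways that handle sugar also differed little. The 31 genes of glucose and fructose transport and metabolism had a median of -0.07, with 0 past 2-fold, and 24 of them were lower. The glucose transporter Slc2a1 of the blood-brain barrier was at 11.4 on starch and 9.82 on sucrose (-0.21), the neuronal transporter Slc2a3 at 6.3 and 6.11 (-0.04), and the fructose transporter Slc2a5 at 0.918 and 0.847 (-0.12). The highest member was the liver-type phosphofructokinase Pfkl (0.43). Insulin and IGF signalling had a median of 0.00 over 24 genes, from -0.46 for Irs2 to 0.69 for Igf2. Receptors and ligands of advanced glycation products had a median of -0.07 over 11 genes, and their receptor Ager changed by -0.18. All 25 measured genes of the respiratory chain and ATP synthase were lower, but by at most 0.25 and with a median of -0.06. Antioxidant and cholesterol genes each had a median of -0.04, clock genes -0.04, and housekeeping genes -0.02, with -0.00 for Actb.

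Among hormone genes, the pituitary and hypothalamic list had a median of 0.05 over 17 genes, with single genes far from it. The list was divided, with 9 genes higher on sucrose (up to 0.95) and 8 lower. By 2-fold or more, 2 were lower (11.8%, against 0.48% of all genes) and 0 were higher. Over the 7 genes of the list above the median signal the median was -0.69. Prl, prolactin, was dim throughout, at 0.106 on the heterozygous starch array against 0.0105 on the sucrose array (-3.33) and 0.0101 and 0.0305 in wild-type mice. The growth hormone gene Gh was at least 5.85-fold lower and Cga, the common subunit of the glycoprotein hormones, at least 2.62-fold lower. All 3 of these pituitary hormone genes were thus higher on starch, while Pomc, also made there, changed by 0.12. Gnrh1 changed by -1.64 at its brightest probe and -0.01 at a dim one. Of the thyroid and retinoid list, Dio3, which inactivates thyroid hormone, was the only one of 22 measured members past 2-fold (1.10, against 1.29% of all genes higher) and was dim, and Rbp4 changed by 0.04. The 11 measured pigment cell genes had a median of -0.16, with 9 lower, 0 of them by 2-fold, and 1 (9.09%, against 1.29% of all genes) 2-fold higher. A further member, Slc45a2, was at least 2.55-fold lower. The measured genes ranged from -0.98 for Tyrp1 and Dct (-0.26 at its other probe) through -0.96 for Mlana (-1.07 at its other probe) to 1.39 for Oca2. In wild-type mice the median of the pigment cell list was -0.06 and 3 members were 2-fold lower (against 0.994% of all genes).

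Outside the lists the lowest gene with a probe above the median signal was Tia1, an RNA-binding protein of stress granules, at 15.4 on starch and 6.1 on sucrose (-1.33). Its 5 other probes changed by -0.20 to 0.04, so the value rests on 1 probe. On only 1 of the 2 heterozygous arrays, 2056 more probes were well above background, 1234 of them on sucrose and 822 on starch. Their bounds passed 2-fold at 287 higher and 171 lower probes. The highest bound outside the lists was at least 31.8-fold, for Tex22, and the lowest were at least 35.6-fold lower for Sycp1-ps1, 33 for Defa2, 21.1 for Olfr1242, 21 for Tcrb-J and 18.7 for Wfdc6b, each from 1 probe that was not well above background on sucrose.

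**Figure D4:**
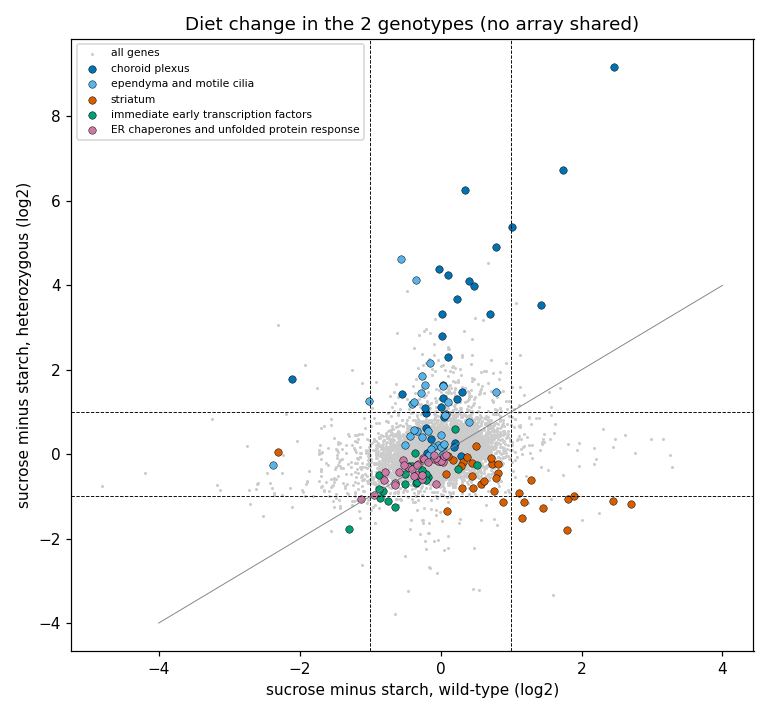
Log2 change from starch to sucrose of each gene in wild-type mice (horizontal axis) and in heterozygous mice (vertical axis), with 5 gene lists coloured and dashed lines at 2-fold. Choroid plexus genes lie along the vertical axis with Ttr at 2.46 and 9.18, striatal genes fall in the lower right (Drd1 at 1.45 and -1.27), and immediate early and chaperone genes lie mostly in the lower left (Egr2 at -1.30 and -1.76).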

How the data were processed

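One-colour Agilent arrays of mouse prefrontal cortex were analysed, 1 array a group, each from 200 ng of RNA pooled from 3 mice and labelled with Cy3, per the labels. The deposited intensity values came from Agilent Feature Extraction 11.5.1.1, per the submitters' processing notes. Per the file headers, it subtracted background with spatial detrending, detrended within the array, replaced low signals by surrogates and placed probes on mm9. The authors' deposited table held the ratio of this signal to the array's 75th percentile. All 4 arrays shared 1 slide, and a group and its place on the slide cannot be told apart.

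From the intensities, log2 of the processed signal over the 75th percentile was computed. Control spots and outlier spots were left out, spots of a probe averaged, and probes kept that were well above background on all 4 arrays. A dim side gives a lower bound against the lowest signal well above background. Gene names (27188 over all named probes) came from the files and the RefSeq table of GRCm38.p6. Alternatives used limma 3.58.1 (normexp with offset 50, quantile, cyclic loess) in R 4.3.3; other steps used Python 3.11.15. The scripts were tested on simulated data. Exon and UTR annotation of the probes was not used here.

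The named genes were Glo1, the 15 highest and 15 lowest past 2-fold above the median signal, genes whose probes all passed (at most 10 each way; 4 were lower), list members past 2-fold, the 5 highest and 5 lowest bounds and the first 3 genes of a list. Derl3, Creld2, Xbp1, Atf4, Ddit3, Hspb1, Usp18, Bst2, Ifi27, Jun, Nr4a3, Dnah5, Dnah11, Ppp1r1b, Penk, Pdyn, Cartpt, Crym, Ccn2, Pfkl, Irs2, Igf2, Rbp4, Sst, Itga2b, Gp5, Slc45a2 and the genes of the 2 added lists were named after their values were seen. The comparison and its 34 gene lists (771 genes, 738 measured) were chosen with earlier results of these data known. Some genes that this rule names are not reported here.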

Additional observations from a re-analysis of the deposited data

Results flagged for a closer look

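The genes that follow passed 2-fold with diet in both genotypes, but in opposite directions. With 1 array a group the difference between genotypes was not tested. Among striatal genes, Adora2a changed by -1.79 in heterozygous and 1.80 in wild-type mice, Drd1 by -1.27 and 1.45, Rgs9 by -1.13 and 1.19, Gpr6 by -1.07 and 1.81, Serpina9 by -1.50 and 1.16, Six3 by -1.18 and 2.70, and Sh3rf2 by -1.10 and 2.44. A second probe of Gpr6 gave -0.38 and 0.83 and one of Sh3rf2 gave -0.58 and 0.31. Six3 and Sh3rf2 were dim on every array, at levels of 0.113 or less. The choroid plexus gene Aqp1 changed by 1.79 and -2.11, and the cilia gene Foxj1 by 1.26 and -1.01. Prl, which was near background on the heterozygous sucrose and wild-type starch arrays (0.0105 and 0.0101), changed by -3.33 and 1.60.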

How the results depend on the processing

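The counts of 420 higher and 194 lower probes depended most on background and the filter: 154 and 70 with normexp, 1793 and 1191 of 56584 probes without a filter, and 57 and 24 of 21047 probes above the median signal. With normexp, the list medians were -0.42 for interferon, 0.45 for cilia, -0.52 for striatum, -0.39 for blood and 0.34 for hippocampus. Without a filter they were 2.30 for choroid plexus, 1.08 for cilia and -0.59 for blood. Above the median signal they were -0.60 for immediate early factors, -0.35 for interferon, 1.42 for choroid plexus, -0.45 for striatum, -0.59 for blood and 0.15 for hippocampus. There the pituitary median was -0.69 over 7 genes, against 0.05 over 17, and the members past 2-fold were 11 of 15 for choroid plexus, 4 of 10 for cilia, 4 of 24 for striatum and 1 of 20 for hippocampus, where 49 of all 13023 genes were 2-fold higher and 17 lower. With the mean over a gene's probes the medians were -0.57 for immediate early factors, 1.97 for choroid plexus, 0.85 for cilia and -0.09 for interneurons, and 5 striatal genes passed 2-fold in place of 9. The cause of these shifts was not tested, except that the filters change which genes are counted. Of the 80 named genes past 2-fold, 65 stayed past it with normexp, 79 with loess and 69 with the mean over probes. All 80 did with quantile and median scaling, with no filter, with the filter on the heterozygous arrays only, with outlier spots kept and with the authors' values. No paired analysis was possible because each group had 1 array. Depth in the sense of reads does not apply; signal over background limits the dimmest quartile, where repeated probes give no spread.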
